A study of Mus musculus with 18 samples.

Results

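The NF-kB family and its inhibitors were described here as 10 genes. The 5 subunit genes were Nfkb1, Nfkb2, Rel, Rela and Relb, and the 5 grouped as inhibitors were Nfkbia, Nfkbib, Nfkbie, Nfkbiz and Tnfaip3. The grouping serves description only, as the Nfkbiz product is also needed for a set of secondary response genes. They were taken by gene symbol, and all 10 were found among the 21441 genes of each of the 2 expression tables. One table holds 9 RNA-seq libraries of RAW264.7 cells, a mouse macrophage-like cell line, and the other 9 libraries of mouse liver, with 3 libraries per treatment in each.

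The treatments were Control, LPS and LPS + MIC-1. LPS is the endotoxin of Gram-negative bacteria, and MIC-1 is moringa isothiocyanate-1, purified from moringa seed. The mice were wild-type C57BL/6 males. The Control mice were a DMSO vehicle group injected with saline, and the LPS mice received 10 mg/kg LPS into the peritoneum. The LPS + MIC-1 mice were in addition given 80 mg/kg MIC-1 in DMSO by gavage for 3 days before LPS. The study states a gavage of MIC-1 or vehicle for 3 days before the injection, without naming vehicle for the LPS group separately. Livers were taken 16 h after the injection, and no group received MIC-1 without LPS. The macrophages were treated with 10 µM MIC-1 by the series text, whereas their labels repeat the doses of the mouse experiment, and the LPS concentration of the sequenced cultures is not given in the sources used here. Nothing says that the 3 macrophage libraries of a treatment came from separate cultures, so their p-values measure the spread between these samples, which may be technical.

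NF-kB is a dimer of subunits that share a DNA-binding Rel homology region. In resting cells it is held in the cytoplasm by IkB proteins, and endotoxin signalling through Toll-like receptor 4 activates kinases that mark the IkB proteins for degradation, so that the dimer enters the nucleus. Several of the genes it switches on encode its own subunits and inhibitors, and in macrophages and liver this loop shapes how long the response to endotoxin lasts.

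All values are FPKM, fragments scaled for transcript length and library depth. Library numbers follow the order of columns within a treatment, as its columns name no replicate. Differences were tested with limma on log2(FPKM + 0.5) over all genes with a mean FPKM above 1, which were 9905 genes in macrophages and 10147 in liver. Log2FC is a difference on that scale, and a fold is the same difference unlogged. Both understate the change of genes with low FPKM. A gene was called where the Benjamini-Hochberg adjusted p was below 0.01 in macrophages or 0.05 in liver and the absolute Log2FC was above 1. All 10 members were tested in macrophages and 8 of 10 in liver, where Rel and Nfkbib stayed under the filter. The mean was taken over all libraries of a table, so a gene low in Control could pass through its treated libraries. Nfkbib in macrophages and Relb and Tnfaip3 in liver had a Control mean under 1 FPKM and passed in that way.

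Promoter sequences of the members are shown first, because several members are known targets of NF-kB, whose dimers bind the sequence called the NF-kB consensus. Of the 10 members, 7 had an entry among the RefSeq promoters of build GRCm38.p6, and Nfkb1, Relb and Nfkbiz had none. Over the 250 bases before the gene start and on both strands, the NF-kB consensus was found in 5 of these 7 genes. A gene can have several starts, each with its own window. By window it was found in 7 of the members' 10 and in 7.25% of all 32851. The looser pattern GGGNNNNNCC, which contains the consensus, was found in 9 of the members' 10 windows and in 45.8% of all windows. The genes with a match were Nfkbia, Tnfaip3, Rel, Nfkb2 and Nfkbie, the last with GGGGGATTCC 97 bases before its start. Neither Rela nor Nfkbib held a consensus match. In macrophage LPS libraries 1 and 3, Nfkbie was below every Control library, and the other genes with a match were above. Of the genes without a match, Rela was below and Nfkbib above. Whether a match goes with the response to LPS was not tested. The stretches below run 5′ to 3′ toward the gene start, with consensus matches in capitals. They lie at chr12:55492648-55492897 on the minus strand (Nfkbia), chr10:19015411-19015660 on the minus strand (Tnfaip3), chr11:23770970-23771219 on the minus strand (Rel), chr19:46304487-46304736 on the plus strand (the first of 3 starts of Nfkb2) and chr19:5637291-5637540 on the plus strand (Rela, which has no match). A match is a run of letters and not a measured binding site.
Nfkbia: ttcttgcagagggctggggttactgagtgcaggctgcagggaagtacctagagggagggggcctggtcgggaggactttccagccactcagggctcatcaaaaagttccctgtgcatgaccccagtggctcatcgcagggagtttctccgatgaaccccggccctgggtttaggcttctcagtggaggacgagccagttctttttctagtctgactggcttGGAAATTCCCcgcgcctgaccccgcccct
Tnfaip3: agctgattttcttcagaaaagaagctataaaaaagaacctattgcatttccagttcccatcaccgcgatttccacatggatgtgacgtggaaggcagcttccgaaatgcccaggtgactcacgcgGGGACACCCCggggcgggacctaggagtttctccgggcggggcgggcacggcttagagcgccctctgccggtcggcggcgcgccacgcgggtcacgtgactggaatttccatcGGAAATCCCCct
Rel: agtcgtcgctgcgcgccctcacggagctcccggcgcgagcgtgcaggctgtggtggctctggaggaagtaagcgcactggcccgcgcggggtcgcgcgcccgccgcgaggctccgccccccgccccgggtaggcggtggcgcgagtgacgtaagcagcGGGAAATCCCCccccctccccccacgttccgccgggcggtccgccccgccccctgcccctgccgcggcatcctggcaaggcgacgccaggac
Nfkb2: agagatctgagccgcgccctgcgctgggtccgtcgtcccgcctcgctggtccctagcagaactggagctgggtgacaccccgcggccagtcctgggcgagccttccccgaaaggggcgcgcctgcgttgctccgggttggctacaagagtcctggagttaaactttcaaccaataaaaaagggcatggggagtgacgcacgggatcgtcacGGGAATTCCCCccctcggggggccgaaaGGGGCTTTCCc
Rela: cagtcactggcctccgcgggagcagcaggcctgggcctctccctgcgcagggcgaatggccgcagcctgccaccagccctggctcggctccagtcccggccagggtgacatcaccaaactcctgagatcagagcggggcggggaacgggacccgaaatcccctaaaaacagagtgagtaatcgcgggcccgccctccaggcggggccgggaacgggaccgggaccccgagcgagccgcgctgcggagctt

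One macrophage library went against its label. LPS library 2 lay as close to Control library 2 as the closest pairs within a treatment lay to each other. Over genes with a mean FPKM above 10, the median absolute log2 difference between these 2 libraries was 0.056, against 0.052 between Control libraries 1 and 3 and 0.071 between LPS libraries 1 and 3. The FPKM values of LPS libraries 1 and 3 summed to 1137533 and 1132904, and those of the other 7 macrophage libraries to between 557136 and 652486. The macrophage comparisons were therefore fitted over all 9 libraries and over the 8 without LPS library 2, a choice made with earlier results of these data known. The study itself used 8 macrophage libraries with 2 of LPS. In liver, LPS library 2 was closer to LPS + MIC-1 library 2 (0.303) than to LPS libraries 1 and 3 (0.530 and 0.541), and Control library 1 was 0.448 and 0.520 from Control libraries 2 and 3, which were 0.162 apart.

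Libraries 1 and 3 of each macrophage treatment formed close pairs. Over genes with an estimated 500 to 5000 reads, their squared differences were 1.72 to 2.53 times what counting noise gives, and those between library 2 and the rest of its treatment 13.0 to 284 times. The 2 LPS libraries of the 8-library fit are such a pair. In liver the same ratio to counting noise was 2.41 for LPS + MIC-1 libraries 1 and 3. It was 7.53 for LPS libraries 1 and 3 and 8.84 for Control libraries 2 and 3. The other pairs within a liver treatment were at 64.9 to 135. The study describes the livers as taken from separate mice, and why these pairs lay so close was not tested. Depth was estimated from the steps between low FPKM values, of which 78.8 to 84.6% lay within 0.1 of a whole number of reads. It came to 11.7 to 15.3 M reads in the macrophage libraries and to between 3.20 and 14.1 M in the liver libraries, with the median transcript length of each gene, and to 18.7 to 24.2 and 4.79 to 19.4 M with the longest. Liver Control libraries 2 and 3 were the shallowest, at 3.29 and 3.20 M reads with the median length.

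The labelled cell types were checked against their markers. In RAW264.7 cells, 6 of 7 macrophage markers were found and all 6 had a mean above 1 FPKM, with a summed level of 10951 to 13387 FPKM in the 9 libraries. Hepatocyte markers summed to at most 12.3 FPKM there, and Hnf4a was listed at 0 in every library. Of the 6 neutrophil markers found, S100a8 alone moved far in the macrophages, and it took their sum from at most 5.15 FPKM in Control to between 5.28 and 41.3 FPKM in LPS and between 655 and 721 FPKM in LPS + MIC-1, while Mpo and Elane stayed at or below 0.132 FPKM. Its part in the results below was not tested. In liver all 6 hepatocyte markers were present, and they summed to between 32892 and 77078 FPKM.

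In untreated macrophages Nfkbia was the most abundant member. It encodes IkB-alpha, the inhibitor that is degraded first and resynthesised on NF-kB activation. Its level was 112, 192 and 115 FPKM in the 3 Control libraries, above every other member. Nfkb1 followed with a mean of 32.6 ± 2.90 FPKM (SD, n = 3) and Rela with 30.2 ± 0.759, and these overlapped. Nfkb2 came next at 28.2 ± 0.374 FPKM, separate from both neighbours in the order. Nfkbiz, Relb and Nfkbie had means of 12.9, 12.7 and 10.1 FPKM, with each overlapping the next. Tnfaip3 at 4.13, Rel at 2.33 and Nfkbib at 0.825 FPKM closed the order, each separate from the next.

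**Figure D1:**
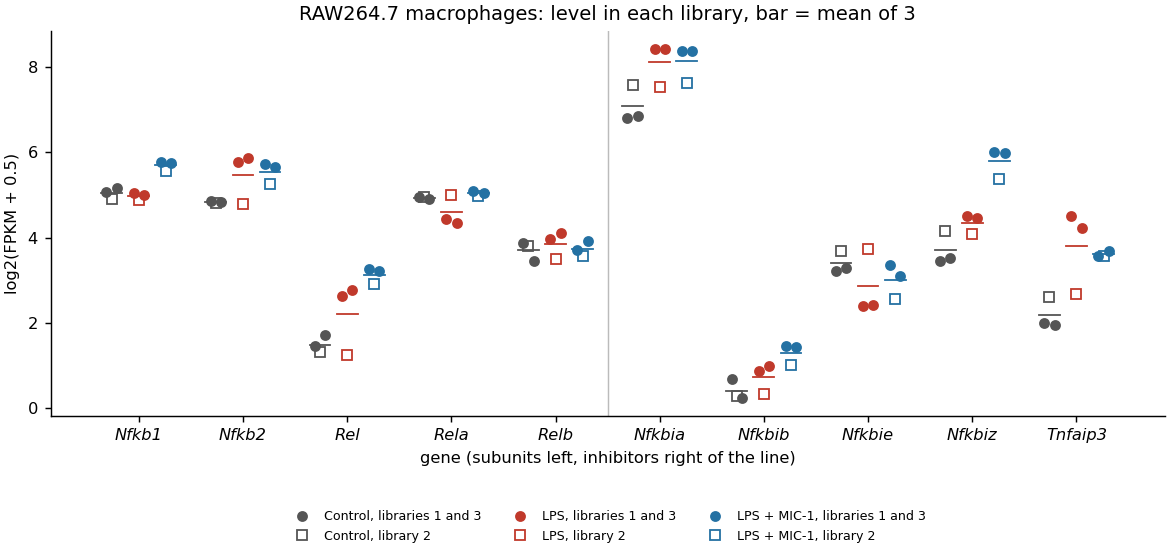
Level of each member in the 9 RAW264.7 libraries as log2(FPKM + 0.5), by treatment. Filled circles are libraries 1 and 3, open squares library 2 of each treatment, and bars the mean of 3 libraries; the LPS square lies close to the Control square for most members, and Nfkbiz is highest in the 3 LPS + MIC-1 libraries.

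The comparison of LPS with Control asked how endotoxin moved the loop in macrophages. Over the 8 libraries 3 members rose, the inhibitors Tnfaip3 and Nfkbia and the subunit Rel, and none of the 10 was called lower. In the same comparison 34.2% of all tested genes were called. Over all 9 libraries 0 of 10 members and 0% of all tested genes were called by limma, while 4 members and 4928 genes had an unadjusted p below 0.05. Without the minimum fold, 6 of 10 members passed over the 8 libraries, against 64% of all tested genes, and 0 against 0% over the 9. The median Log2FC was 0.66 for the members and -0.02 for all genes tested over the 8 libraries, and 0.49 and -0.03 over the 9.

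Tnfaip3 encodes a ubiquitin-editing enzyme that shuts down signalling to NF-kB, also known as A20. Its level was 3.48, 5.57 and 3.35 FPKM in Control and 22.2, 5.87 and 18.2 FPKM in LPS. LPS libraries 1 and 3 stood well above Control, and LPS library 2 stood just above the highest Control library. Tnfaip3 rose 4.54-fold over the 8 libraries (Log2FC 2.18 ± 0.20 SE, adjusted p = 3.1e-05). Over the 9 libraries its Log2FC was 1.62 (adjusted p = 0.0777).

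Nfkbia in LPS had 346, 187 and 342 FPKM. Libraries 1 and 3 lay above every Control library, and library 2 lay under the 192 FPKM of Control library 2. It rose 2.53-fold over the 8 libraries (Log2FC 1.34 ± 0.29, adjusted p = 0.00356), and over the 9 its Log2FC was 1.05 (adjusted p = 0.0777). The call over the 8 libraries was lost without Control library 1 or 3, and with no filter on low values (adjusted p = 0.0101). It was also lost without LPS library 1 or 3 and with the close libraries averaged as 1 sample, fits that left a single LPS sample.

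Rel encodes c-Rel, a subunit with a transactivation domain that is prominent in lymphoid and myeloid cells. It measured 2.25, 1.97 and 2.76 FPKM in Control and 5.65, 1.87 and 6.37 FPKM in LPS. The 2 groups overlapped through LPS library 2 alone. Rel rose 2.31-fold over the 8 libraries (Log2FC 1.21 ± 0.15, adjusted p = 0.000195), with a Log2FC of 0.73 over the 9 (adjusted p = 0.147).

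A further 3 members passed the adjusted p over the 8 libraries without reaching the minimum fold. Nfkb2, whose precursor is processed to the subunit of the alternative pathway, measured 28.5, 27.8 and 28.2 FPKM in Control and 54.3, 27.4 and 57.9 FPKM in LPS. Its Log2FC over the 8 libraries was 0.98 ± 0.13 (adjusted p = 0.000233), just under the minimum. Nfkbie, which encodes IkB-epsilon, went the other way with 8.74, 12.3 and 9.32 FPKM in Control and 4.78, 12.8 and 4.87 FPKM in LPS. Its Log2FC was -0.98 ± 0.24 (adjusted p = 0.00594). Rela, the main transactivating subunit, held within 29.3 to 30.7 FPKM in Control and measured 21.3, 31.3 and 19.8 FPKM in LPS, a Log2FC of -0.54 ± 0.07 (adjusted p = 0.000166). LPS libraries 1 and 3 lay outside the Control range for all 3 genes, and library 2 lay close to it. In the 9-library fit the Log2FC was 0.64 for Nfkb2 (adjusted p = 0.0968), -0.54 for Nfkbie (0.262) and -0.34 for Rela (0.128). In the 8-library fit Nfkb2 would be called without LPS library 1 (Log2FC 1.03), and Nfkbie without Control library 1 (-1.07) or with a pseudocount of 0.1 (-1.04).

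Nfkb1, Relb, Nfkbib and Nfkbiz were called in neither fit. Nfkb1, whose precursor yields the DNA-binding partner of Rela, had 33.2, 29.4 and 35.1 FPKM in Control and 32.7, 28.9 and 31.6 FPKM in LPS, groups that overlapped with and without LPS library 2. Nfkbiz, which encodes the nuclear IkB-zeta needed for a set of secondary response genes, had a Log2FC of 0.78 over the 8 libraries (adjusted p = 0.0221) and 0.64 over the 9 (0.0812). Nfkbib, which encodes IkB-beta, was at 0.672 to 1.49 FPKM over both groups. Relb, the subunit of the alternative pathway that pairs with the Nfkb2 product, had a Log2FC of 0.33 over the 8 libraries (adjusted p = 0.0726) and 0.15 over the 9 (0.523).

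The scaling between libraries matters here. With each library rescaled to 1 common FPKM sum, the median Log2FC of all genes between LPS and Control moved from -0.02 to -0.93 over the 8 libraries, Relb, Nfkbib and Nfkbiz turned negative, Nfkbia (0.35) and Rel (0.34) were no longer called, and Tnfaip3 kept its call. Under that scaling Rela (-1.51, adjusted p = 7.27e-07) and Nfkbie (-1.88, adjusted p = 9.38e-05) were called lower, so that 1 member was called higher and 2 lower in place of 3 and 0. Relative to those medians Nfkbia and Rel stood above the typical gene under both scalings.

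The comparison of LPS + MIC-1 with LPS asked what MIC-1 added in macrophages. The member that rose was Nfkbiz, and it did so over the 8 and over the 9 libraries. That is 1 of 10 members in each fit, against 23.3% of all tested genes over the 8 libraries and 3.87% over the 9. Without the minimum fold 3 members passed over the 8 libraries (Nfkb1, Rela and Nfkbiz, all higher; 54.4% of all genes) and 2 over the 9 (Nfkb1 and Nfkbiz, both higher; 6.23% of all genes). The median Log2FC was 0.40 for the members and 0.01 for all genes over the 8 libraries. The same LPS libraries served in the comparison with Control, so the 2 sets of differences are not independent.

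Nfkbiz measured 10.5, 17.2 and 11.0 FPKM in Control, 22.4, 16.4 and 21.6 FPKM in LPS and 63.7, 41.3 and 63.3 FPKM in LPS + MIC-1. The 3 LPS + MIC-1 libraries lay above all 6 others. It rose 2.47-fold over LPS in the 8 libraries (Log2FC 1.30 ± 0.25, adjusted p = 0.00237) and 2.71-fold in the 9 (Log2FC 1.44 ± 0.25, adjusted p = 0.00742). The 8-library call was lost without LPS library 1 or 3 and with the close libraries averaged as 1 sample, fits that left a single LPS sample. The 9-library call was lost without any 1 of Control libraries 1 and 3, LPS libraries 1 and 3 and the 3 LPS + MIC-1 libraries (adjusted p between 0.0107 and 0.0385), with the close libraries averaged (0.219), with no filter on low values (0.0113) and with only the 2 groups in the fit (0.0289).

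Nfkb1 was nearly level between Control and LPS and higher with MIC-1, at 54.1, 47.1 and 53.7 FPKM. These 3 libraries lay above all 6 others, whose highest was 35.1 FPKM. The Log2FC against LPS was 0.67 ± 0.10 over the 8 libraries (adjusted p = 0.000496) and 0.72 ± 0.12 over the 9 (adjusted p = 0.00543), a 1.59-fold and a 1.65-fold difference, under the minimum fold. Rela measured 33.7, 31.1 and 32.4 FPKM with MIC-1, above LPS libraries 1 and 3 and around the 31.3 FPKM of LPS library 2. Its Log2FC was 0.64 ± 0.07 over the 8 libraries (adjusted p = 9.67e-05) and 0.45 over the 9 (adjusted p = 0.0908).

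Rel was at 9.04, 7.01 and 8.73 FPKM with MIC-1, above every LPS library, with a Log2FC of 0.42 over the 8 libraries (adjusted p = 0.0405) and 0.91 over the 9 (adjusted p = 0.117). Nfkbib was at 2.23, 1.52 and 2.22 FPKM, also above every LPS library, with a Log2FC of 0.37 over the 8 libraries (adjusted p = 0.146) and 0.57 over the 9 (0.135). Neither passed the test.

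Tnfaip3 measured 11.3, 11.5 and 12.3 FPKM with MIC-1, a narrow range between the low LPS library 2 and the high LPS libraries 1 and 3. Its Log2FC against LPS was -0.75 ± 0.20 over the 8 libraries, with an adjusted p of 0.0103 that missed the threshold, and -0.19 over the 9 (adjusted p = 0.777). Nfkbia stood at 334, 199 and 334 FPKM with MIC-1 against 346, 187 and 342 FPKM in LPS, a Log2FC of -0.29 over the 8 libraries (adjusted p = 0.401) and of 0.00 over the 9 (adjusted p = 0.995). In both groups library 2 was the low one. Nfkb2 was at 52.1, 38.0 and 50.0 FPKM and Nfkbie at 9.73, 5.35 and 8.04 FPKM, and neither passed in either fit. Relb lay at 11.4 to 14.5 FPKM.

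With rescaling to 1 common sum the median Log2FC of all genes in this comparison moved from 0.01 to 0.74 over the 8 libraries, Nfkb2, Relb, Nfkbia and Tnfaip3 turned positive, and 5 members were called higher in place of 1 (Nfkb1, Rel, Rela, Nfkbie and Nfkbiz).

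**Figure D2:**
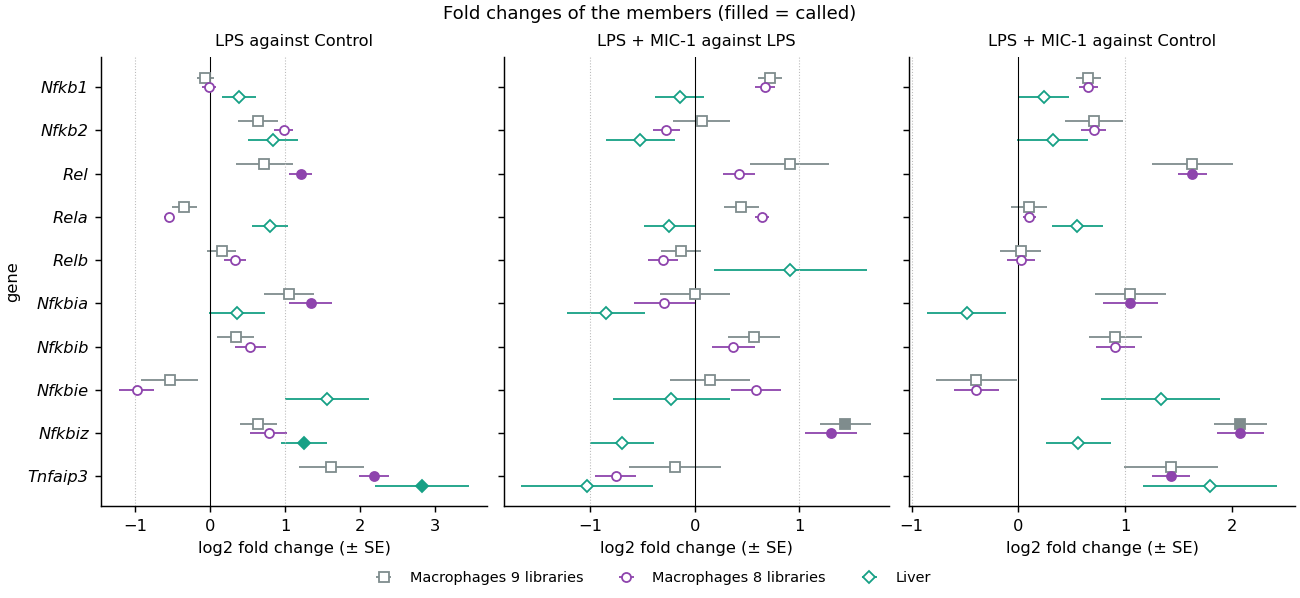
Log2 fold change of each member with its standard error in the 3 comparisons, for the macrophages over 9 and over 8 libraries and for the liver, filled where called. Dotted lines mark a Log2FC of 1 and -1, and liver Relb is left out against Control, where it was listed at 0; Nfkbiz is the filled point in macrophages for LPS + MIC-1 against LPS, at 1.44 and 1.30.

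The comparison of LPS + MIC-1 with Control gave the joint effect of both agents in macrophages. Over the 8 libraries 4 of 10 members rose, Nfkbiz, Rel, Tnfaip3 and Nfkbia, against 15.7% of all tested genes. Over the 9 libraries Nfkbiz alone was called among the members, 1 of 10 against 5.59% of all tested genes. Without the minimum fold 7 members passed over the 8 libraries, all higher (45.9% of all genes), and 2 over the 9 (8.74%). Those that passed by p alone over the 8 libraries were Nfkb1 (Log2FC 0.66), Nfkb2 (0.71) and Nfkbib (0.91). Nfkbib would be called without Control library 1 (Log2FC 1.05, adjusted p = 0.00418), without LPS + MIC-1 library 2 (1.05, 0.00179) and with a pseudocount of 0.1 (1.18, 0.00437). Its values rest on few reads, an estimated 23.5, 14.2 and 14.2 in Control and 40.5, 27.6 and 33.4 in LPS + MIC-1. The Control mean was under the filter of 1 FPKM.

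Nfkbiz rose 4.24-fold (Log2FC 2.08, adjusted p = 0.000151 over the 8 libraries and 0.00153 over the 9) and was called in both. Over the 9 libraries the Nfkbiz call was lost without any 1 of libraries 1 and 3 of Control and of LPS + MIC-1 (adjusted p between 0.0109 and 0.0117) and with the close libraries averaged (0.13). Rel rose 3.10-fold over the 8 libraries (adjusted p = 4.81e-05) and had an adjusted p of 0.0181 over the 9, where it would be called with rescaling to 1 common sum (0.00728) and with only the 2 groups in the fit (0.000199). Tnfaip3 rose 2.69-fold over the 8 (adjusted p = 0.000299), with 0.0468 over the 9 (0.000778 with only the 2 groups in the fit). Nfkbia rose 2.07-fold over the 8 (adjusted p = 0.00935), with 0.0524 over the 9. The Nfkbia call was lost without any 1 of libraries 1 and 3 of each treatment (adjusted p between 0.0175 and 0.0359), with no filter on low values (0.0237), with rescaling to 1 common sum (0.016) and with only the 2 groups in the fit (0.0174). In each of these 4 genes the 3 LPS + MIC-1 libraries lay above all 3 Control libraries, for Nfkbia narrowly (199 against 192 FPKM). The same held for Nfkb1, Nfkb2, Nfkbib and Rela, so it does not set the called genes apart. How many of all genes had groups without overlap was not counted. With the close libraries averaged, Nfkbiz, Tnfaip3 and Nfkbia lost their 8-library calls, in a fit that left a single LPS sample.

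Relb had the smallest difference of the members between LPS + MIC-1 and Control in macrophages. Its Log2FC against Control was 0.02 with LPS + MIC-1, and the 9 libraries spanned 10.5 to 16.8 FPKM. Rela was close behind, at a Log2FC of 0.10 (adjusted p = 0.182 over the 8 libraries); with rescaling to 1 common sum both turned slightly negative (-0.16 and -0.08).

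In liver Nfkbia was again the most abundant member. The liver table was normalized apart from that of the macrophages, so levels are compared within it alone, and in a tissue fewer cells of a type cannot be told apart from less RNA per cell. In Control liver Nfkbia was at 130, 90.5 and 84.6 FPKM, and Rela followed at 17.6, 14.7 and 14.5 FPKM, each separate from the next. Nfkb2, Nfkbiz and Nfkb1 had means of 6.33, 4.99 and 4.40 FPKM with each overlapping the next. Nfkbie, Tnfaip3, Nfkbib and Rel had means of 1.29, 0.348, 0.176 and 0.158 FPKM. Relb was listed at 0 in all 3 Control libraries.

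**Figure D3:**
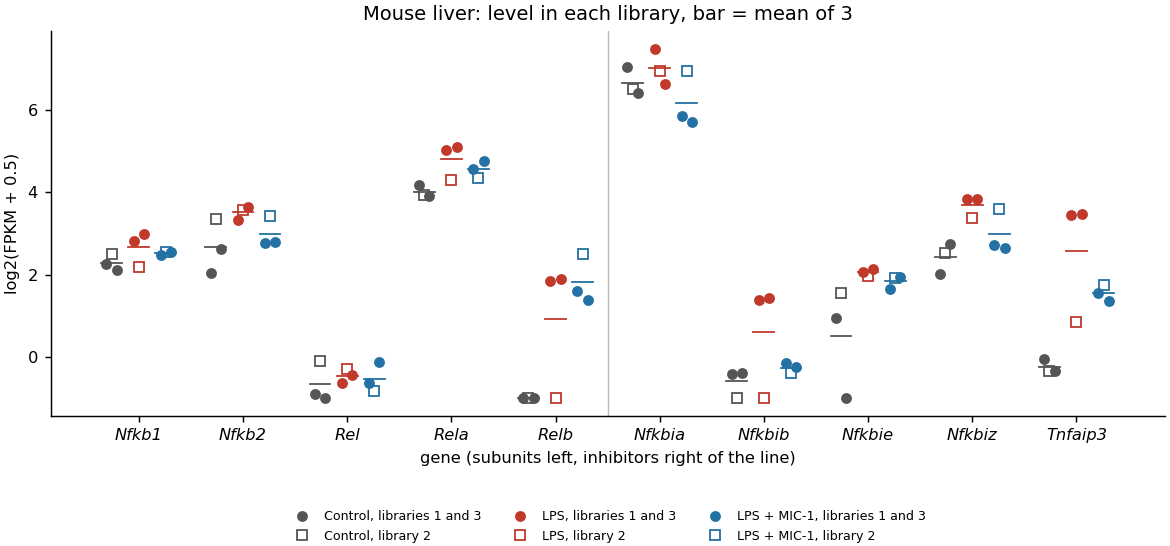
Level of each member in the 9 liver libraries as log2(FPKM + 0.5), by treatment. Filled circles are libraries 1 and 3, open squares library 2 and bars the mean of 3 libraries; Tnfaip3 and Relb are far higher in LPS libraries 1 and 3 than in Control, and LPS library 2 is lower for both.

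The comparison of LPS with Control in liver called 2 of the 8 tested members, Tnfaip3 and Nfkbiz, both higher. In the same comparison 24.6% of all tested genes were called. Without the minimum fold Rela passed as well, 3 of 8 against 34.7% of all genes. All 8 Log2FC values were positive, with a median of 1.05 against 0.15 for all genes. For liver the study names a P-value below 0.05 without saying that it is adjusted. At an unadjusted p below 0.05 with the minimum fold, Relb and Nfkbie were called as well, 4 of 8 members and 2882 genes.

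Tnfaip3 measured 0.465, 0.293 and 0.287 FPKM in Control and 10.4, 1.30 and 10.5 FPKM in LPS. Every LPS library lay above every Control library, and LPS library 2 was far below the other 2. Tnfaip3 rose 7.11-fold (Log2FC 2.83 ± 0.63, adjusted p = 0.0121). The Control values rest on an estimated 4.03 to 11.3 reads and lie under 1 FPKM, so Tnfaip3 passed the filter through its treated libraries. Without LPS library 3 the adjusted p was 0.0518.

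Nfkbiz had 3.53, 5.24 and 6.20 FPKM in Control and 13.9, 9.87 and 13.7 FPKM in LPS, with no overlap. It rose 2.39-fold (Log2FC 1.26 ± 0.31, adjusted p = 0.0167). The call was lost without LPS library 1 (adjusted p = 0.0617), without LPS library 3 (0.0665) and with rescaling to 1 common sum (0.077). Rela had 31.8, 19.0 and 33.6 FPKM in LPS, all above Control, with a Log2FC of 0.80 ± 0.24 (adjusted p = 0.0345), under the minimum fold. Without LPS library 2 its Log2FC was 1.05 (adjusted p = 0.00306), which would be a call. With the close liver libraries averaged as 1 sample neither call held (adjusted p = 0.178 for Tnfaip3 and 0.171 for Nfkbiz).

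Relb was listed at 0 in 4 of the 9 liver libraries, and whether such a 0 is a failed estimate of the pseudoalignment was not tested. It was listed at 3.12, 0 and 3.20 FPKM in LPS and at 2.55, 5.17 and 2.09 FPKM in LPS + MIC-1, so LPS library 2 was the only one of the 6 treated libraries at 0. LPS libraries 1 and 3 had an estimated 108 and 104 reads of Relb, whereas LPS library 2 was listed at 0 with an estimated 8.89 M reads in all. The adjusted p was 0.0702 for LPS against Control and 0.0182 for LPS + MIC-1 against Control, and no fold is given against a group at 0. Without LPS library 2 the adjusted p for LPS against Control was 0.000991, which would be a call. The call for LPS + MIC-1 against Control was lost without Control library 2 (adjusted p = 0.0524), Control library 3 (0.0517) or LPS + MIC-1 library 2 (0.0559), and with the close libraries averaged (0.125). Nfkbib reached 2.10 and 2.20 FPKM in the first and the third LPS library and at most 0.399 FPKM in the other 7 libraries, with LPS library 2 listed at 0, and was not tested. Rel stayed at or below 0.434 FPKM in every liver library.

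The remaining tested members were not called between LPS and Control in liver. Nfkbie was at 1.42, 2.46 and 0 FPKM in Control and between 3.41 and 3.92 FPKM in LPS, groups that did not overlap (Log2FC 1.56 ± 0.56, adjusted p = 0.0581). Whether the 0 in Control library 3 is a failed estimate was not tested either. Nfkb2 had a Log2FC of 0.84 (adjusted p = 0.0776) and Nfkb1 of 0.38 (adjusted p = 0.217). Without Control library 2 both Nfkb2 (Log2FC 1.18, adjusted p = 0.0318) and Nfkbie (2.09, 0.0316) would be called, and Nfkbie would be with a pseudocount of 1 (adjusted p = 0.0432). Nfkbia was at 178, 122 and 97.9 FPKM in LPS, overlapping Control, with a Log2FC of 0.36 (adjusted p = 0.459).

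LPS + MIC-1 against LPS in liver called 0 of 8 members with limma, and 0% of all tested genes with or without the minimum fold. At an unadjusted p below 0.05 there were 0 members and 364 genes, of which 100 passed the minimum fold. The Log2FC was negative for 7 of the 8 members, and the exception was Relb. The median was -0.38 for the members and -0.01 for all genes, and -0.26 for all genes with rescaling to 1 common sum. The share of all genes with a negative Log2FC was not counted, and the members share the same libraries. Nfkbiz was at 6.12, 11.6 and 5.74 FPKM with MIC-1 against 13.9, 9.87 and 13.7 FPKM in LPS (Log2FC -0.69, adjusted p = 0.997). Nfkbia was at 56.9, 123 and 51.6 FPKM (Log2FC -0.85, adjusted p = 0.997). For both genes LPS + MIC-1 libraries 1 and 3 lay below all LPS libraries, and library 2 lay within their range.

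Tnfaip3 was at 2.44, 2.88 and 2.05 FPKM with MIC-1, below LPS libraries 1 and 3 and above LPS library 2 (Log2FC -1.03 ± 0.63, adjusted p = 0.997). Without LPS library 2 its Log2FC was -1.90 (adjusted p = 0.0291), which would be a call. Nfkbie was at 2.64, 3.30 and 3.33 FPKM in LPS + MIC-1, all below LPS, with a Log2FC of -0.22 ± 0.56 (adjusted p = 0.997). The share of all genes whose groups did not overlap was not counted.

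Against Control, LPS + MIC-1 liver had 1 of 8 tested members called, Relb, against 25.2% of all tested genes, and the same 1 without the minimum fold (36.4% of all genes). Relb was listed at 0 in every Control library and passed the filter through its treated libraries alone, so its test is not independent of that filter. Tnfaip3 had a Log2FC of 1.80 ± 0.63 and an adjusted p of 0.0523, with no overlap between the groups. It would be called without LPS library 2 (adjusted p = 0.000766), with only the 2 groups in the fit (0.00424) and with a pseudocount of 0.1 (0.0273). Nfkbie would be called without Control library 2 (Log2FC 1.87, adjusted p = 0.0383). At an unadjusted p below 0.05 with the minimum fold Tnfaip3 and Nfkbie joined Relb, 3 of 8 members and 2930 genes. Nfkbia had a Log2FC of -0.48 (adjusted p = 0.327). With rescaling to 1 common sum the median of all genes in this comparison moved from 0.15 to -0.43, and Nfkb1, Nfkb2, Rela and Nfkbiz turned from positive to negative, and Nfkbia was called lower (Log2FC -1.14, adjusted p = 0.0399).

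Markers of other cells in liver are given beside the members. The 6 macrophage markers found summed to 28.6 to 43.2 FPKM in Control, 127 to 625 FPKM in LPS and 127 to 436 FPKM in LPS + MIC-1. In LPS, library 2 was the lowest and in LPS + MIC-1 it was the highest, as for Nfkb1, Relb, Nfkbiz and Tnfaip3 in both groups. The other members did not have this order. Cd14, a co-receptor for endotoxin, was the largest term in the LPS libraries, at 10.8, 7.70 and 3.49 FPKM in Control, 569, 84.2 and 552 FPKM in LPS and 56.7, 407 and 61.4 FPKM in LPS + MIC-1. Lyz2, a lysozyme of myeloid cells, was the largest term in Control, at 13.4 to 25.4 FPKM, and measured 58.6, 19.1 and 56.7 FPKM in LPS + MIC-1. Itgam was at 0.949 to 1.51 FPKM in Control and 3.87 to 6.77 FPKM in the treated libraries. Csf1r differed little, at 3.49 to 7.32 FPKM in Control and 5.11 to 8.73 FPKM in the treated libraries. Emr1 and Ptprc stayed at or below 1.60 and 0.449 FPKM. The 6 neutrophil markers found summed to 34.6 to 51.3 FPKM in Control, 283 to 352 FPKM in LPS and 167 to 406 FPKM in LPS + MIC-1, and Csf3r was at 0 in 6 of 9 libraries. The sum joins markers that went opposite ways. S100a8 was at 2.13 to 7.98 FPKM in Control and 228 to 286 FPKM in LPS, while Cxcr2 was at 26.5 to 42.6 FPKM in Control, 3.89 to 10.1 FPKM in LPS and 3.59 to 7.79 FPKM in LPS + MIC-1. The 5 Kupffer cell markers summed to 29.2 to 51.0 FPKM in Control, 36.9 to 53.9 FPKM in LPS and 50.9 to 96.1 FPKM in LPS + MIC-1. Here Marco was at 2.18 to 6.79, 23.1 to 40.4 and 38.4 to 75.6 FPKM in the 3 groups, whereas Clec4f was at 13.0 to 30.1 FPKM in Control and 2.85 to 6.32 FPKM in the treated libraries, and Vsig4 at 3.02 to 6.70 and 0.647 to 1.72 FPKM. Endothelial markers summed to between 19.1 and 43.9 FPKM over the 9 libraries and lymphocyte markers to between 0.868 and 5.78 FPKM. The part of these cells in the members' values was not tested.

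The other genes of the pathway were counted from lists. Among 8 other IkB proteins and small inhibitors, 2 rose and 1 fell between LPS and Control over the 8 macrophage libraries, with a list median of 0.19, and 0 of 8 were called over the 9 (4 had an unadjusted p below 0.05). All tested genes were called at 34.2% and 0% in these fits. Nfkbid, which encodes the nuclear inhibitor IkB-NS, measured 2.11, 1.47 and 2.45 FPKM in Control, 10.1, 3.51 and 11.7 FPKM in LPS and 2.23, 0.559 and 3.36 FPKM in LPS + MIC-1. It rose with LPS (Log2FC 2.20, adjusted p = 0.00382) and fell with MIC-1 against LPS (Log2FC -2.35, adjusted p = 0.00336), both over the 8 libraries. Over the 9 neither was called (Log2FC 1.70, adjusted p = 0.0777, and -1.85, 0.0483), and 0 of 8 genes of the list were called for MIC-1 against LPS. Nkiras1, a Ras-like protein that binds IkB-beta, rose (Log2FC 1.36) and Nkrf, which encodes an NF-kB repressing factor, fell with LPS (Log2FC -1.34) over the 8 libraries. In liver 1 of 7 tested genes of this list was called between LPS and Control, against 24.6% of all tested genes. It was Nkap, which fell (Log2FC -1.86, adjusted p = 0.00534). Nkap encodes an NF-kB activating protein, so its place in this list serves counting only and its fall is not that of an inhibitor.

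Of 8 tested partners and deubiquitinases, 1 rose and 1 fell between LPS and Control over the 8 libraries, with a list median of 0.22, against 34.2% of all tested genes called, and 0 were called over the 9. Tnip1, an adaptor that binds the Tnfaip3 product, was at 22.5, 30.7 and 19.3 FPKM in Control, 109, 35.0 and 102 FPKM in LPS and 95.9, 65.2 and 86.2 FPKM in LPS + MIC-1. It rose with LPS over the 8 libraries (Log2FC 2.13, adjusted p = 5.56e-05), with a Log2FC of 1.60 over the 9 (0.0777). Tnip3, a related adaptor, was at 36.7, 35.2 and 36.7 FPKM in Control and 9.89, 35.5 and 9.95 FPKM in LPS, and fell over the 8 (Log2FC -1.82, adjusted p = 6.58e-07), with -1.22 over the 9 (0.0777). In liver Tnip1 was the 1 of 6 tested genes called in this comparison, against 24.6% of all tested genes, and it rose (Log2FC 1.41, adjusted p = 0.0114).

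Of 10 kinases upstream, 1 fell with LPS over the 8 macrophage libraries, against 34.2% of all tested genes called, and 0 of 10 were called over the 9, with 6 at an unadjusted p below 0.05. The 1 was Ikbkb, the catalytic kinase of the IkB proteins, with 18.1, 16.0 and 17.3 FPKM in Control and 8.23, 16.5 and 7.69 FPKM in LPS (Log2FC -1.06, adjusted p = 2.13e-05, and -0.72 over the 9, 0.0777). With MIC-1 against LPS limma called 0 of 10 in either fit (23.3% and 3.87% of all tested genes), with 7 at an unadjusted p below 0.05 over the 8 libraries and 5 over the 9. In liver Ikbke, an inducible IkB kinase relative, rose with LPS at 36.6, 53.9 and 40.3 FPKM against 17.8, 18.7 and 18.2 FPKM (Log2FC 1.22, adjusted p = 0.00732). Of 11 tested Trafs and ubiquitin ligases, 2 rose and 1 fell with LPS over the 8 macrophage libraries, against 34.2% of all tested genes called. Birc2 rose (Log2FC 1.78), Traf5 rose (1.30) and Rbck1, a subunit of the linear ubiquitin ligase, fell (-1.50). In the 9-library fit limma called 0 of 11, with 4 at an unadjusted p below 0.05. With MIC-1 against LPS, Ripk1 (1.66) and Birc3 (1.46) rose over the 8 libraries, 2 of 11 against 23.3% of all tested genes. Over the 9 limma called 0 of 11 (Ripk1 1.10, adjusted p = 0.0952, and Birc3 1.22, 0.0111), with 6 at an unadjusted p below 0.05. In liver 0 of 10 passed in each comparison by limma, with 4, 0 and 1 at an unadjusted p below 0.05 for LPS against Control, LPS + MIC-1 against LPS and LPS + MIC-1 against Control. All tested liver genes were called at 24.6%, 0% and 25.2% in the same order.

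Between LPS and Control the target genes of NF-kB had larger median differences than the members. Of 17 tested in macrophages, 11 rose and 3 fell with LPS over the 8 libraries, with a median Log2FC of 2.78. Over the 9 libraries 0 were called, with 13 at an unadjusted p below 0.05. All tested genes were called at 34.2% and 0% in these fits. With MIC-1 against LPS 7 rose and 4 fell over the 8 libraries, and 2 rose and 0 fell over the 9. Here all tested genes were called at 23.3% and 3.87%. Ccl5, a chemokine for T cells, was at 46.7, 101 and 90.4 FPKM in Control, 24673, 115 and 25371 FPKM in LPS and 464, 219 and 461 FPKM in LPS + MIC-1. Csf2, a myeloid growth factor, reached 9.42, 4.66 and 8.82 FPKM with MIC-1 against at most 0.662 FPKM in LPS (Log2FC 2.83, adjusted p = 0.000134 over the 8 libraries, and 3.16, 0.00179 over the 9). Csf2 stayed under 1 FPKM in every Control and LPS library, so it passed the filter through LPS + MIC-1 alone. Its test is not independent of that filter. Ccl4, another chemokine, was at 2938, 2515 and 2729 FPKM with MIC-1 against 492, 529 and 496 FPKM in LPS (Log2FC 2.43, adjusted p = 0.000486 over the 9 libraries, and 2.46, 1.38e-05 over the 8). Il6 was at 5.45, 0.418 and 6.37 FPKM in LPS and 59.0, 15.5 and 59.6 FPKM with MIC-1. For Ccl5, LPS library 2 stood just above the highest Control library and far below LPS libraries 1 and 3.

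In liver 9 of the 13 tested target genes rose with LPS, with a median Log2FC of 1.77, and 8 rose with LPS + MIC-1 against Control. All tested genes were called at 24.6% and 25.2% in these comparisons. Between LPS + MIC-1 and LPS 0 of 13 were called by limma, against 0% of all tested genes, with 2 at an unadjusted p below 0.05. Cxcl1, a neutrophil attractant, was at 12.4, 12.1 and 7.83 FPKM in Control, 192, 139 and 226 FPKM in LPS and 146, 192 and 147 FPKM in LPS + MIC-1.

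**Figure D4:**
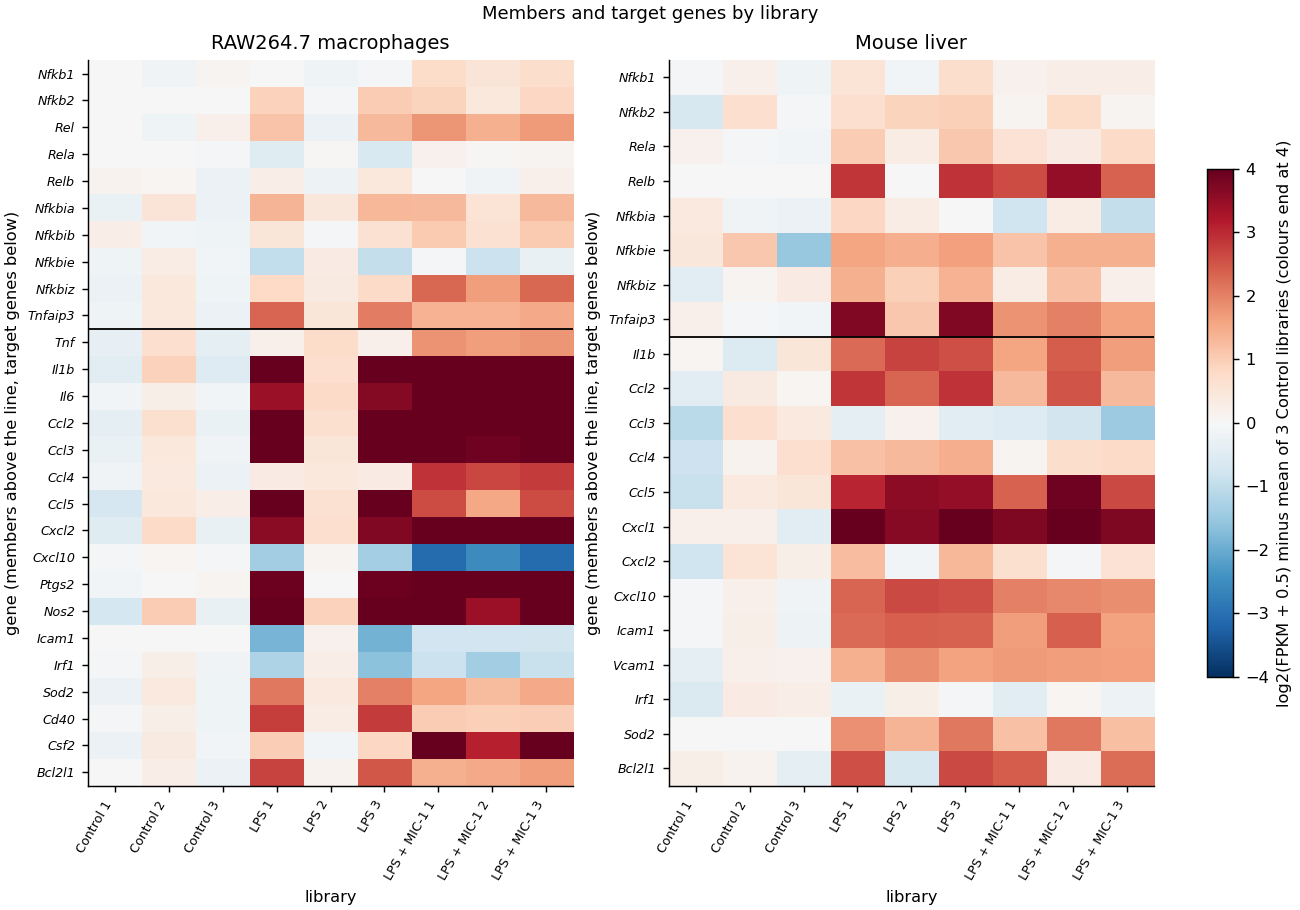
Members above and tested target genes of NF-kB below the line, each library as log2(FPKM + 0.5) minus the mean of the 3 Control libraries of its table, on a symmetric colour scale that ends at 4. In macrophages LPS library 2 is pale for nearly all genes, and in liver Cxcl1 is dark red in the 6 treated libraries.

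The genes whose levels over the 9 libraries were most like those of a member are given as a description. The libraries fall into treatment groups, so any gene that separates the groups the same way scores high. In macrophages the highest Pearson r with Nfkbiz was that of Spred3 (0.996), with Tnfaip3 that of Slc31a2 (0.995), with Nfkbia that of Dgka (0.990), with Rel that of Aff1 (0.998), with Nfkb1 that of Acsl4 (0.991), with Nfkb2 that of Il33 (0.997) and with Rela that of Amica1 (0.996). Relb had no close match, its highest being Apoa2 at 0.914. In liver the highest with Nfkbiz was Glyctk (0.993) and with Tnfaip3 Pes1 (0.994), over libraries in which library 2 of LPS and of LPS + MIC-1 and library 1 of Control stood apart.

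The genes lie on 8 mouse chromosomes. In build mm9, by the GENCODE M1 annotation, Nfkbiz spans chr16:55811488-55839012 and Tnfaip3 chr10:18720716-18735463, both on the minus strand. Rela and Nfkb2 share a chromosome, at chr19:5637483-5648130 and chr19:46379227-46386580, both on the plus strand. Relb and Nfkbib share another, at chr7:20191566-20214787 and chr7:29543270-29552531, both on the minus strand.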

How the data were processed

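RNA was sequenced from RAW264.7 macrophages (9 libraries) and mouse liver (9 libraries), with 3 per treatment. The authors pseudoaligned reads to a RefSeq transcript index of mm9 with kallisto 0.45.0, used tximport to sum transcripts to genes, and deposited DESeq2 1.20.0 FPKM values, scaled between libraries. Strand and read filters are not given in the sources used here. The deposited tables of the authors' own comparisons hold mean counts, log2 fold changes, standard errors, Wald statistics and p-values, and were not used. Every column was matched to a treatment by its name.

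The 10 members and all gene lists were chosen with earlier results of these data known. Each table was fitted alone with limma 3.58.1 in R 4.3.3 (lmFit, contrasts.fit, eBayes with trend) on log2(FPKM + 0.5), over genes with a mean FPKM above 1 and all 3 treatments of a table in 1 fit, with Benjamini-Hochberg adjustment over all genes tested. Macrophages were fitted with 9 and with 8 libraries. The minimum fold and the macrophage threshold follow the study. For liver the study names a P-value below 0.05 without saying that it is adjusted, and the adjusted p was used here. Named besides the members were up to 3 genes per list and comparison, those with the largest absolute log2 fold change among the called, and the tested genes with the highest Pearson r to each member. Alternatives were pseudocounts of 0.1 and 1, no filter, rescaling to the same sum, no minimum fold, only the 2 groups compared, and leaving out each library. Averaging close libraries and, in liver, an unadjusted p below 0.05 were added after seeing the data. A simulation in which 200 genes were changed served to test the fit. Depth was estimated by dividing low FPKM values, times transcript length less 150 bases from the mm9 annotation, by the value of 1 read. FPKM values carry no counting intervals. Promoters came from RefSeq, build GRCm38.p6. Python 3.11.15 and matplotlib drew the figures.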

Additional observations from a re-analysis of the deposited data

Results flagged for a closer look

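In 4 cases every treated library lay on one side of its reference mean in macrophages (9 libraries) and every treated library lay on the other side in liver. None of these differences between macrophages and liver was tested. Between LPS + MIC-1 and LPS, Nfkbiz had a mean log2 difference of 1.44 in macrophages and -0.69 in liver, Nfkb1 of 0.72 and -0.14, and Rela of 0.45 and -0.24. Between LPS + MIC-1 and Control, Nfkbie had a mean log2 difference of -0.39 in macrophages and 1.34 in liver.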

How the results depend on the processing

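No paired analysis was possible because the columns of the tables carry no replicate number. Counts are given for LPS against Control, LPS + MIC-1 against LPS and LPS + MIC-1 against Control in that order. They were 0, 1 and 1 members and 0, 383 and 554 genes over the 9 macrophage libraries, 3, 1 and 4 members and 3386, 2310 and 1560 genes over the 8, and 2, 0 and 1 members and 2493, 0 and 2560 genes in liver.

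With close libraries averaged as 1 sample the counts were 0, 0 and 0 members and 0, 0 and 0 genes over the 9 macrophage libraries, 2, 0 and 1 members and 2712, 1557 and 1004 genes over the 8, and 0, 0 and 0 members and 150, 0 and 171 genes in liver. In that fit fewer samples remained. Over the 9 libraries the Log2FC of LPS + MIC-1 against LPS turned for Nfkbie (-0.19) and Tnfaip3 (0.085), that of LPS + MIC-1 against Control for Relb (-0.038, in both macrophage fits), and over the 8 libraries that of LPS against Control for Nfkb1 (0.019).

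With no minimum fold the counts were 0, 2 and 2 members and 0, 617 and 866 genes over the 9 libraries, 6, 3 and 7 members and 6344, 5391 and 4551 genes over the 8, and 3, 0 and 1 members in liver. With only the 2 groups in the fit, LPS + MIC-1 against LPS gave 0 members and 5 genes and LPS + MIC-1 against Control 3 members and 1541 genes over the 9 libraries, and LPS + MIC-1 against Control gave 2 members in liver. With no filter on low values LPS + MIC-1 against LPS gave 0 members over the 9 libraries and 2 genes in liver. Pseudocount 0.1 gave 2 members for liver LPS + MIC-1 against Control, and pseudocount 1 gave 1 gene for liver LPS + MIC-1 against LPS. At an unadjusted p below 0.05 liver gave 4, 0 and 3 members, and 100 genes for LPS + MIC-1 against LPS. The cause of these changes was not tested.

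With FPKM brought to the same sum, LPS + MIC-1 against LPS over the 8 libraries gave 5 members and 3856 genes, LPS + MIC-1 against Control over the 9 gave 2 members, and liver gave 1 member for LPS against Control and 2 for LPS + MIC-1 against Control. Directions turned with it as follows. For LPS against Control over the 9 libraries they were Nfkb2 (-0.035), Relb (-0.51), Nfkbib (-0.12) and Nfkbiz (-0.018), and over the 8 Relb (-0.63), Nfkbib (-0.13) and Nfkbiz (-0.18). For LPS + MIC-1 against LPS over the 9 they were Relb (0.35) and Tnfaip3 (0.29), and over the 8 Nfkb2 (0.52), Relb (0.47), Nfkbia (0.51) and Tnfaip3 (0.024). For LPS + MIC-1 against Control they were Rela (-0.084) and Relb (-0.16) in both macrophage fits, and in liver Nfkb1 (-0.35), Nfkb2 (-0.29), Rela (-0.085) and Nfkbiz (-0.043).

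Leaving out 1 library at a time gave 0 to 3 members and 0 to 3386 genes for LPS against Control over the 9 macrophage libraries, 0 to 1 members and 109 to 2310 genes for LPS + MIC-1 against LPS, and 0 to 4 members and 141 to 1560 genes for LPS + MIC-1 against Control. The upper end of the genes came without LPS library 2 each time. Over the 8 libraries LPS + MIC-1 against LPS gave 0 to 1 members. In liver the ranges were 0 to 4 members and 1227 (without LPS library 3) to 3510 genes (without LPS library 2) for LPS against Control, 0 to 1 members and 0 to 35 genes for LPS + MIC-1 against LPS (the higher counts without LPS library 2), and 0 to 2 members for LPS + MIC-1 against Control. The Log2FC of LPS + MIC-1 against LPS over the 9 macrophage libraries spanned 0 for Nfkb2 (-0.27 to 0.26), Nfkbia (-0.29 to 0.25), Nfkbie (-0.082 to 0.59) and Tnfaip3 (-0.75 to 0.16), and in liver for Nfkb1 (-0.39 to 0.018) and Relb (-0.044 to 1.40). It also did so for Relb in LPS + MIC-1 against Control in both macrophage fits (-0.10 to 0.10) and for Nfkb1 in LPS against Control over the 8 libraries (-0.087 to 0.038).

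Depth limited the liver Control libraries most, where Tnfaip3, Nfkbib and Rel rested on few reads. Nfkbib rested on few reads in the macrophages as well. In the 8-library macrophage fit without LPS library 1 or 3, or with the close libraries averaged, a single LPS sample remained. It was assumed to vary like the other groups.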
